A study of Mus musculus with 2 samples.

Results

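From a list chosen with earlier results of these data known, 41 genes of the actin cytoskeleton and of contraction are described here. They were taken by their platform gene symbol. They fell into 22 cytoplasmic actins and actin regulators, 8 proteins that link filaments to the membrane, and 11 contractile genes of smooth muscle and myoepithelium. All 41 had at least 1 probe set, 111 in all, among 18193 genes with a named probe set, and 40 of them were measured. The data were 2 Affymetrix Mouse Genome 430 2.0 arrays of mammary gland RNA from female CD1 mice that had been bought at 6 weeks of age and mated with CD1 males. The labels do not give their age at dissection. One array held RNA pooled from 5 mice on day 0, when litters of 6 pups were removed at day 10 of lactation. The other held RNA pooled from 5 mice on day 1 of involution, as the post-weaning shrinking of the milk-producing tissue is called. No group carried a transgene, a deletion or a drug treatment per the labels, and both groups had nursed litters of the same size.

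Actin is a globular protein that polymerises into filaments. Monomer-binding, severing and capping proteins set how fast filaments turn over, tropomyosins and crosslinkers give them shape, and linkers tie them to the plasma membrane and to adhesion sites. In the lactating gland the milk-secreting luminal cells are held in a basket of myoepithelial cells, which carry a smooth muscle set of contractile proteins and shorten when oxytocin binds its receptor. Many genes of both sets are known targets of serum response factor (SRF), which binds a DNA element called the CArG box.

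The CArG box shows what some of these promoters share apart from the array values. Of the 41 genes, 35 matched a RefSeq promoter (GRCm38.p6), and the 250 bases before each start were searched on both strands. The 35 were 20 cytoplasmic, 7 linker and 8 contractile genes. A gene not named below had no match or was not searched. A CArG box was found in 6 of the 35 (17.1%) against 439 of 27025 gene symbols in the whole table (1.62%). Of the 6, Actg1, Cnn2, Lima1 and Myl6 are cytoplasmic, Vcl is a membrane linker and Myl9 is contractile. Each window below is shown with the CArG box in capitals.
Actg1: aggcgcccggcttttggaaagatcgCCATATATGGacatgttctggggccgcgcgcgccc
Cnn2: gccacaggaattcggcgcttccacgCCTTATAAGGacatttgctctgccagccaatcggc
Lima1: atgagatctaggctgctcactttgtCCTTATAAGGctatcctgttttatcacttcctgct
Myl6: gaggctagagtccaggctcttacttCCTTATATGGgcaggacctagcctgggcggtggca
Vcl: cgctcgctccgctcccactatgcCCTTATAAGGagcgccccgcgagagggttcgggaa
Myl9: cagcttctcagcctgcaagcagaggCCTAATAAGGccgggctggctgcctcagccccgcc
The Actg1 window lies at chr11:120348551-120348610 on the minus strand, and its box begins 90 bases before the start. The Cnn2 window is chr10:79988519-79988578 on the plus strand (56 bases before the start), and the Lima1 window is chr15:99820162-99820221 on the minus strand (47 bases). The Myl6 window is chr10:128493025-128493084 on the minus strand (50 bases). The windows of Vcl, chr14:20929148-20929205, and of Myl9, chr2:156775278-156775337, are both on the plus strand, with the box 227 and 161 bases before the start. The same sequence, CCTTATAAGG, forms the box of Cnn2, Lima1 and Vcl. Of the 2 other motifs searched, the AP-1 motif TGANTCA was found in 4 of 35 (11.4%, Actn4, Ezr, Mylk and Zyx) against 7.82% of all symbols. The STAT motif TTCNNNGAA was found in 0 of 35 against 8.13%. These matches describe the letters in 1 window per start and not a bound site.

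Signals are MAS 5 probe set intensities on a linear scale, and each gene was read from its brightest probe set. A signal below the floor of 77.7, the median of all signals, was set to the floor, and a gene was called measured when its brighter array exceeded it. Ratios are day 1 over day 0. Where 1 of the 2 signals was below the floor the ratio is a limit, called a bound or written "at least". With 1 array of a pool for each day there was no replicate error and no test, so every difference is between these 2 arrays. The tissue label was checked on milk protein genes: the signal of Csn2 was 80908 on day 0 and 31909 on day 1, and Wap had 76344 and 32035. The median signal was 94.2 and 60.1 on the 2 arrays, and 15 hybridisation controls had a median log2 ratio of -1.16. Ratios are therefore best read against other genes. In whole tissue, fewer cells of a type and less RNA per cell cannot be told apart.

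On day 1 the cytoplasmic regulators and the membrane linkers were mostly higher, whereas the contractile genes were near their day 0 level. At least 2-fold higher signals were found in 25 of the 40 measured genes, and 0 were at least 2-fold lower. Over all 13239 measured genes, 10.4% had a day 1 signal at least 2-fold higher and 13.3% had one at least 2-fold lower. Among the 5043 genes at least as bright as the dimmest measured gene of the list (a mean signal of 412), 15.1% were higher and 10.5% lower. By role, 17 of 22 cytoplasmic regulators (77.3%), 7 of 8 linkers (87.5%) and 1 of 10 measured contractile genes (10%) were at least 2-fold higher. The last share is close to that over all genes. Of the 10 measured contractile genes, however, 9 had a ratio above 0, against 5732 of the 13239 measured genes. The median log2 ratio was 1.55 for the regulators, 1.39 for the linkers and 0.38 for the contractile genes, against -0.12 for all measured genes. The contractile median thus lay 0.50 log2 units above that of all genes. That difference was 0.31 with a floor of 250 and 0.64 with a floor of 22.3. No median was taken over genes of like brightness. The median of the regulators exceeded that of the contractile genes by 1.17 log2 units, a difference with no test in this design. The genes were chosen with earlier results of these data known, and the part of that choice in the shares above was not tested.

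**Figure D1:**
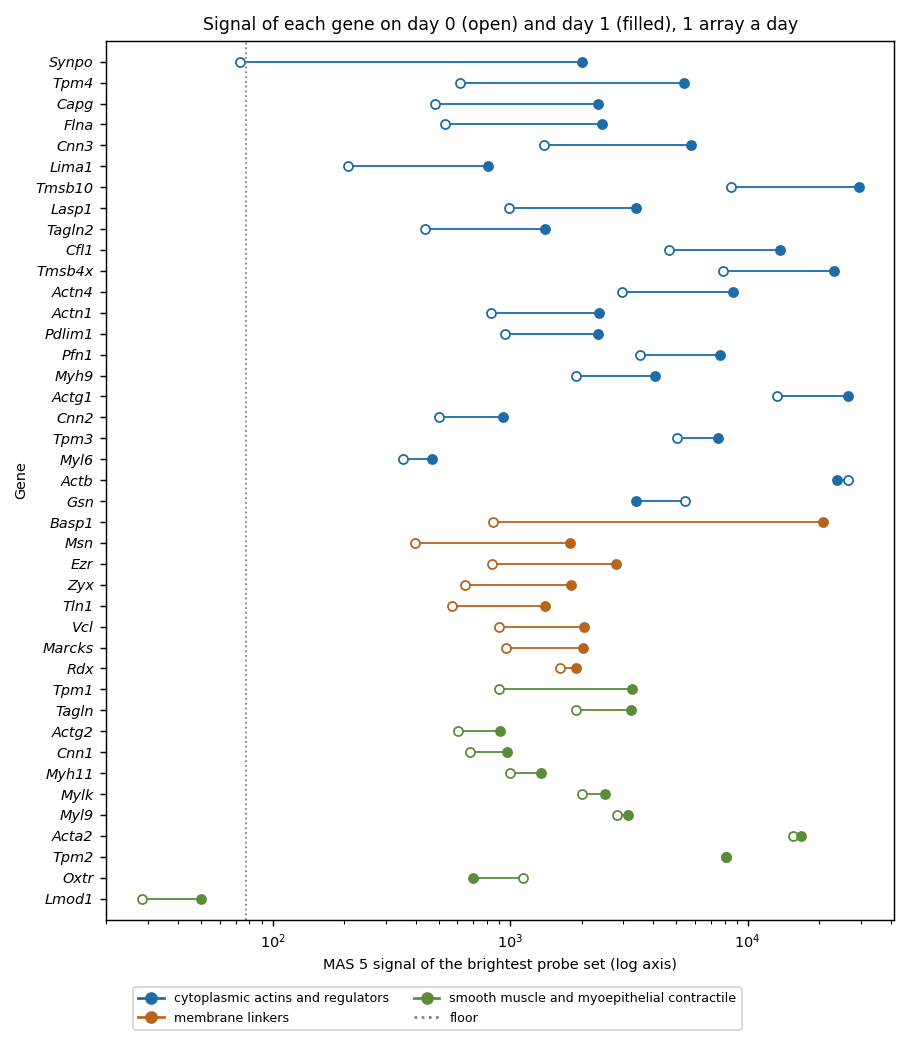
MAS 5 signal (log axis) of the brightest probe set of each of the 41 genes, with day 0 as open and day 1 as filled circles, coloured by role; each circle is 1 array of pooled RNA and the dotted line is the floor of 77.7. Long lines from left to right mark the regulators and linkers, short lines most contractile genes, and Actb, Gsn and Oxtr run the other way.

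The 2 cytoplasmic actins differed from each other. Actg1, cytoplasmic gamma-actin, had a signal of 13252 on day 0 and 26542 on day 1, which is 2.00-fold higher and just past the threshold. Actb, cytoplasmic beta-actin, had 26407 and 23739, a log2 ratio of -0.15. Both genes, and Tmsb4x, Tmsb10 and Basp1, exceeded 50% of the highest signal of the day 1 array (40090), a range in which brightness can level off as RNA increases. The probe sets of Actb did not give 1 value. Its dimmer probe set had 3252 and 1092 (log2 ratio -1.57), whereas the array's beta-actin quality controls had log2 ratios of 0.20 at the 3' end, 0.85 in the middle and 0.93 at the 5' end. The ratio of 3' to 5' signal for beta-actin was 2.5 on day 0 and 1.51 on day 1, and for Gapdh it was 1.52 and 1.48. The part of RNA quality in the other ratios was not tested.

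The monomer-binding proteins had higher signals on day 1. Thymosin beta 4, encoded by Tmsb4x, holds monomers in reserve, and its signal was 7848 on day 0 and 23016 on day 1, or 2.93-fold higher. Its relative Tmsb10 had 8517 and 29323, or 3.44-fold higher at the brightest probe set. The next 2 Tmsb10 probe sets, which were dimmer, had larger differences, from 1332 to 14775 (log2 ratio 3.47) and from 694 to 6745 (3.28). Thus all 4 measured probe sets of Tmsb10 were at least 2-fold higher, and the brightest had the smallest ratio. Pfn1, the profilin that feeds monomers to growing filaments, had 3536 and 7625, or 2.16-fold higher.

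Among proteins that cut or cap filaments, Cfl1 and Capg were higher and Gsn was not. Cofilin, encoded by Cfl1, severs old filaments, and its signal went from 4663 to 13721, or 2.94-fold higher, with a log2 ratio of 1.15 at its other probe set. Capg, which caps the fast-growing end, had 485 and 2352, or 4.85-fold higher, but its dim second probe set had 132 and 155. Gsn, gelsolin, which both severs and caps, had 5457 and 3397, a log2 ratio of -0.68. The 5 measured Gsn probe sets ranged from -0.68 to 0.32 and none reached 2-fold.

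Filamin A, the actinins, Lima1, Lasp1 and Pdlim1 were at least 2-fold higher by their brightest probe sets. Flna, filamin A, which joins filaments into a gel and ties them to membrane receptors, had 534 and 2444.5, or 4.57-fold higher. The actinins, which bundle filaments, had close ratios. Actn4 went from 2973 to 8714 (2.93-fold higher) and Actn1 from 831 to 2369.6 (2.85-fold), although the other 2 Actn1 probe sets had log2 ratios of 0.47 and -0.07. Lima1, or EPLIN, which stabilises filaments at cell junctions, had 209 and 807, or 3.87-fold higher. Of its 4 measured probe sets, 3 were at least 2-fold higher and the fourth had a log2 ratio of 0.12. Lasp1, an adaptor of filament bundles, had 986 and 3388, or 3.44-fold higher. Of its 8 measured probe sets 5 were at least 2-fold higher, and a dim one with signals of 152 and 55 had a bound of -0.97. Pdlim1, an adaptor that binds actinin, had 948 and 2339, or 2.47-fold higher.

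Synpo and Tpm4 had the largest ratios of the cytoplasmic group. Synaptopodin, encoded by Synpo, binds actinin and shapes filament bundles in kidney podocytes and neurons. It had 73.1 on day 0, below the floor, and 2006 on day 1, at least 25.8-fold higher, while its second probe set had only 9.9 and 92.9. Tpm4, a tropomyosin of non-muscle cells, went from 617 to 5404, or 8.76-fold higher, on its only probe set. The Tpm3 signal, for another cytoplasmic tropomyosin, was 5056 and 7507 (1.48-fold), and its measured probe sets disagreed, from a bound of -1.08 to 1.46. Tpm3 and Tpm1 give several transcripts from 1 gene, and which of them each probe set reads was not resolved here.

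The genes of the non-muscle motor and of the calponin-like proteins had higher day 1 signals, of which Myl6 and Cnn2 were under 2-fold. Myh9, the heavy chain of non-muscle myosin IIA, had 1904 and 4057, or 2.13-fold higher, and all 4 of its measured probe sets were at least 2-fold higher. Myl6, a light chain of the same motor, had 354 and 469 (log2 ratio 0.41) on the only probe set that names it alone. Cnn3, a calponin of non-muscle cells, went from 1393 to 5783, or 4.15-fold higher. Of its 6 probe sets 4 were at least 2-fold higher, with the lowest at 0.75. Without probe sets marked as shared between transcripts, Cnn3 had 532 and 978, a log2 ratio of 0.88. Cnn2, another calponin, had 504 and 936 (1.86-fold, under the threshold). Tagln2, the non-muscle transgelin, had 439 and 1408, or 3.21-fold higher, with a log2 ratio of 0.96 at its other measured probe set.

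Basp1 had the largest ratio of the linkers. Basp1 and Marcks encode myristoylated proteins that bind acidic lipids of the inner membrane and gather actin beneath it. Basp1 went from 851 to 20747, or 24.4-fold higher, on its only probe set. Marcks had 965 and 2023, or 2.10-fold higher, at its brightest probe set. Of the 6 measured Marcks probe sets, 5 were at least 2-fold higher, up to a log2 ratio of 1.71, and 1 was lower, from 367 to 180 (-1.03).

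The 3 ERM proteins, which anchor cortical filaments to membrane proteins when phosphorylated, did not share 1 ratio. Msn, moesin, had 399 and 1789, or 4.49-fold higher, and its other probe set had 214 and 420.5 (log2 ratio 0.97). Ezr, ezrin, the form typical of epithelial apical membranes, had 836.5 and 2794.5, or 3.34-fold higher, although a dim probe set with signals of 127 and 94 had a log2 ratio of -0.44. Rdx, radixin, had 1629 and 1896, and its 3 probe sets ranged from -0.45 to 0.22. Moesin and ezrin were thus higher on day 1 by their brightest probe sets, and radixin was under 2-fold on every probe set.

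The adhesion linkers had similar ratios. Talin, encoded by Tln1, binds integrins and had 568 and 1404, or 2.47-fold higher. Vinculin, encoded by Vcl, whose promoter window is printed above, strengthens that bond and had 902 and 2049, or 2.27-fold higher. Zyxin, encoded by Zyx, gathers on filaments under tension and had 649 and 1798, or 2.77-fold higher. Other measured probe sets of Tln1 and Vcl were below the floor on day 0 and gave bounds of at least 1.09, 0.91 and 0.55 log2.

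**Figure D2:**
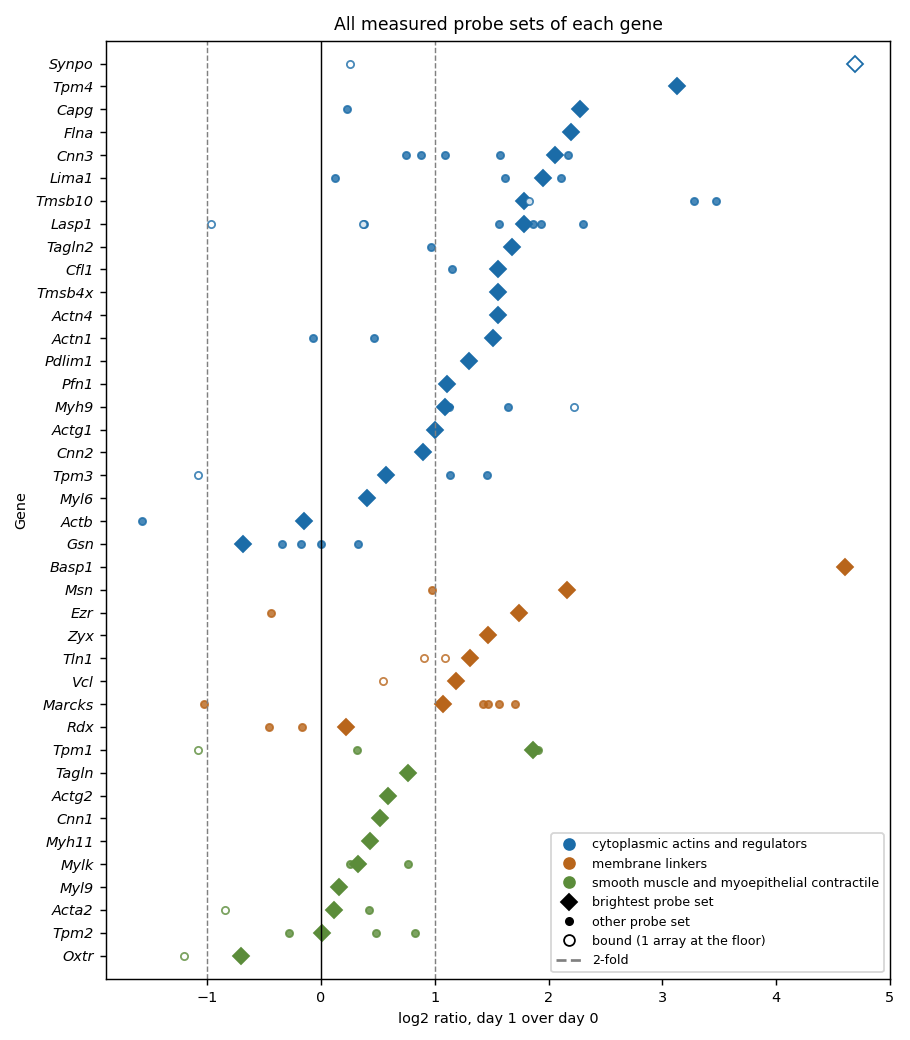
Log2 ratio of day 1 over day 0 for every measured probe set of the 40 measured genes, with the brightest probe set as a diamond, the others as circles, bounds as open symbols and dashed lines at 2-fold. Most regulators and linkers have a diamond to the right of the 2-fold line with some dim probe sets near 0, and all diamonds of contractile genes except that of Tpm1 lie inside the lines.

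The contractile genes of myoepithelium and smooth muscle were close to their day 0 signals. Acta2, smooth muscle alpha-actin and a defining protein of myoepithelial cells, had 15476 and 16710, a log2 ratio of 0.11. Its other 2 probe sets were near the floor, with a bound of -0.85 and a ratio of 0.42. Actg2, the smooth muscle gamma-actin, had 605 and 910.2 (log2 ratio 0.59). Myh11, the smooth muscle myosin heavy chain, had 1003 and 1353 (0.43).

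The regulators of smooth muscle myosin were also under 2-fold. Myl9, its regulatory light chain, had 2825 and 3142, a log2 ratio of 0.15 that became -0.09 when both arrays were scaled on housekeeping genes. Mylk, the kinase that phosphorylates this light chain, had 2016 and 2522 (0.32), and its 3 probe sets ranged from 0.25 to 0.77. Cnn1, the smooth muscle calponin, had 678 and 974 (0.52), and Tagln, or SM22, had 1893 and 3224 (0.77). Lmod1, a nucleator of smooth muscle filaments, had 28.3 and 50.2, below the floor on both arrays, and gets no ratio.

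Tpm1 and the oxytocin receptor gene had the highest and the lowest ratio of the contractile group, and the other tropomyosin of the group, Tpm2, had the ratio nearest 0. Tpm1 encodes both muscle and non-muscle tropomyosins, and its signal was 901 on day 0 and 3275 on day 1, or 3.63-fold higher. A second Tpm1 probe set had 706 and 2648 (log2 ratio 1.91), but the remaining 2 were dim, at 0.31 and a bound of -1.08. Tpm2 had 8095 and 8135 (0.01), with other probe sets from -0.28 to 0.83. Oxtr, the oxytocin receptor through which milk ejection is triggered, had the lowest ratio of the list, 1135 against 695.5 (log2 ratio -0.71). Its second probe set went from 179.5 to 10.8, a bound of -1.21. When the arrays were scaled on the hybridisation controls the brightest Oxtr probe set was at 0.46.

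In 3 families of related proteins the smooth muscle form had the smaller ratio by the brightest probe sets. The transgelins were at 0.77 for Tagln and 1.68 for Tagln2, and the calponins ran from 0.52 for Cnn1 to 2.05 for Cnn3. The myosin heavy chains were at 0.43 for Myh11 and 1.09 for Myh9. The differences of 0.91 (transgelins) and 0.66 (myosin heavy chains) were near the pooled SD of 0.74 between probe sets of 1 gene of the list. Dimmer probe sets lay closer to the smooth muscle form for Tagln2 (0.96) and Cnn3 (lowest 0.75). The tropomyosins and the actins did not follow this order. Tropomyosins ran over 3.12 log2 units from Tpm2 to Tpm4, and Tpm1 of the contractile list (1.86) lay above the cytoplasmic Tpm3 (0.57). Among the actins, Actb (-0.15) was below both Acta2 and Actg2. Probes of actin family members can share target sequence, and Actg1 and Acta2 were read by probe sets that the array maker marks as shared between transcripts, so the split between actins is uncertain.

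Markers of myoepithelial cells other than the contractile genes had ratios under 2-fold by their brightest probe sets. Among 11 markers, all measured, the count past 2-fold was 0 in both directions, with a median log2 ratio of -0.25 and a summed signal of 3366 on day 0 and 2919 on day 1. Krt14 had 452 and 381 and Krt5 had 505 and 401, both basal keratins, but the 3 measured Krt14 probe sets ranged from -1.73 to 0.47. The largest ratios were those of Trp63, a basal transcription factor (-0.95), and Jag2 (-0.64, with 0.82 at its other probe set). Cdh3, at 123 and 5.8, gave a bound of -0.66. Of the 11 markers 7 had a ratio below 0. The 4 above 0 were Krt17 (0.63), Igfbp2 (0.60), Col17a1 (0.43) and Sncg (0.03). Vascular smooth muscle and pericytes share the contractile genes, and the median of their 11 other markers was -0.14. Pdgfrb (1.46) was at least 2-fold higher and Heyl (a bound of -1.09) at least 2-fold lower. Notch3 had signals of 600.4 and 300.4 and Cspg4 had 199.5 and 99.9, both just short of 2-fold lower. Their other probe sets were at -0.39 and 0.10. Des, desmin, had log2 ratios of 0.63 and -1.08 at its 2 probe sets. Of these 11 markers 5 had a ratio above 0 and 6 below 0. Among 12 skeletal muscle markers Myh2 (1.19) alone passed 2-fold, and Mb was at 0.96. Ratios of 7 of the 12 were above 0 and of 5 below 0. Skeletal muscle RNA was plainly present in both pools. Summed over the 12, these markers reached 21189 (day 0) and 22233 (day 1), more than the 11 myoepithelial markers. Acta1 of this list had 7049 and 6644 (-0.09). The part of skeletal muscle in the signals of the contractile genes was not tested.

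Markers of luminal cells and of leukocytes, which express many cytoplasmic regulators, included several genes with a higher day 1 signal. Counts past 2-fold for all lists here can be set beside the 10.4% of all measured genes that were higher and 13.3% that were lower. The luminal list had 11 of 12 markers measured. Past 2-fold, 7 were higher and 2 lower, with the largest ratios in Cldn4 (5.28) and Krt7 (4.15), and the summed signal was 42263 and 92123. The 2 lower genes were Esr1 (-1.91) and Elf5 (-1.08), Epcam (0.29) and Gata3 (-0.13) were under 2-fold, and Foxa1 was below the floor on both arrays. The macrophage and leukocyte list also had 11 of 12 measured, 6 of them past 2-fold upward and 0 downward, with the largest ratios in Cd14 (2.93) and Cd68 (1.55), and the summed signal was 9485 and 38044.5. Without Cd14 the sum was 5668 and 9034. The macrophage genes Adgre1 (-0.83) and Aif1 (-0.42) and the leukocyte gene Laptm5 (-0.38) had lower signals under 2-fold, and Itgam was below the floor on both arrays. The part of these cells in the ratios of the actin regulators was not tested. Of the other marker lists, 1 of 10 fibroblast genes was higher (Thy1, 1.55) and 0 lower, with Fn1 at 0.74. For endothelial cells, 1 of 9 was higher (Cldn5, 1.03) and 1 lower (Kdr, -1.01). Adipocyte markers had 0 of 8 higher and 2 lower (Lpl, -2.14, and Cd36, -1.75). Of these 8, 2 had a ratio above 0 (Lep, 0.93, and Fabp4, 0.22) and 6 below 0, with Adipoq at -0.10.

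Other genes of the actin pathway, listed by role, were higher more often than lower. Of 10 measured genes of the Arp2/3 complex, which starts branched filaments, and its activators, 4 passed 2-fold upward and 0 downward. The largest ratios were those of Cttn, cortactin (2.21, from 926.5 to 4295), and Wasl (1.74). Of 17 genes of capping, severing and turnover, 7 were higher and 0 lower, with Cotl1 (1.95) and Coro1a (1.79) at the top. In the bundling and cortical list the median was 1.54, and 8 of 13 genes were higher and 0 lower. The largest ratios were those of Anxa1 (from 774 to 9399, or 12.1-fold) and S100a10 (9.27-fold), the latter with probe sets from 0.49 to 3.21 log2. These counts can be read against the 10.4% of all measured genes with a 2-fold higher signal.

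Shares of higher genes in the adhesion, non-muscle myosin and SRF lists can be set beside the same 10.4%, with no test. The share was 15.1% among genes as bright as the actin list, but these lists also hold dimmer genes, such as Srf. Of 15 integrin adhesion genes, 4 were higher and 1 lower. Itgb4 (2.18) and Parva (2.10) had the largest ratios, and Itga5 was the lower gene, with a bound of -1.71. Of 13 non-muscle myosin genes, 4 were higher and 0 lower, among them Myl12a (1.72) and Myo6 (1.35). The SRF list, which holds SRF, its partners and some of its targets, had 2 of 10 genes higher and 0 lower. Srf had 244 and 368 (0.59, with -0.53 at its other probe set) and its cofactor gene Mrtfa had 203 and 355 (0.81). Myocd, the smooth muscle cofactor, had 105 and 17.4, a bound of -0.43. The 2 higher genes were Ccn2 (3.59) and Ccn1 (2.22), secreted matrix proteins that are known SRF targets and not its partners. Srf and its measured partners did not pass 2-fold by their brightest probe sets.

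**Figure D3:**
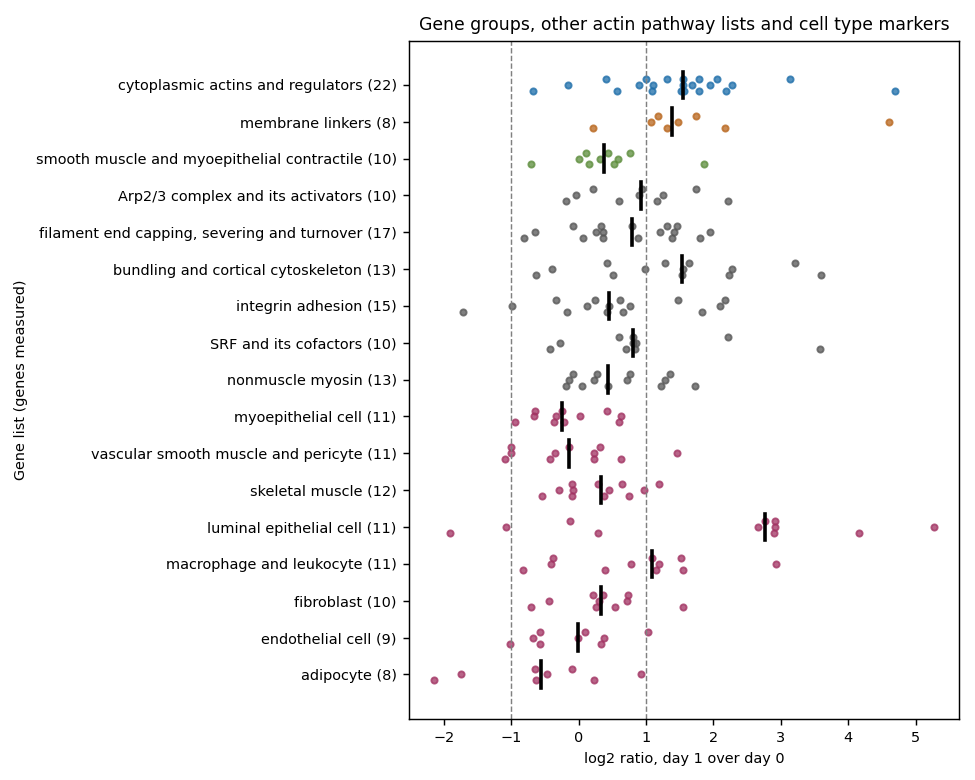
Log2 ratio of day 1 over day 0 for each measured gene (points) of the 3 groups of the actin list, 6 further actin pathway lists (grey) and 8 cell type marker lists (red), with the median as a black bar and dashed lines at 2-fold. The medians of the regulators (1.55) and linkers (1.39) lie right of the 2-fold line, that of the contractile genes (0.38) and of the myoepithelial markers (-0.25) inside it.

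The contractile median was the lowest of the 3 in each setting, but scalings that move all genes alike (median centring, housekeeping and hybridisation controls) could hardly alter that order. The regulators' median exceeded the contractile median by 0.83 to 1.24 log2 units over these settings, and the linkers' by 0.63 to 1.06. The level of all 3 medians depended on the scaling. Scaled on the hybridisation controls, which moved the median of all genes up by 1.03, they were 2.71, 2.55 and 1.49, and 9 contractile genes of 11 were then at least 2-fold higher, as were 46.6% of all measured genes. That scaling adds the same amount to every ratio above the floor, which put Actb at 1.01 and Gsn at 0.48. The sign of the ratios of Actb, Gsn and Oxtr at their brightest probe sets thus depended on the scaling. In that setting the median of all measured genes was 0.91, with Actb above it and Gsn and Oxtr (0.46) still below it.

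**Figure D4:**
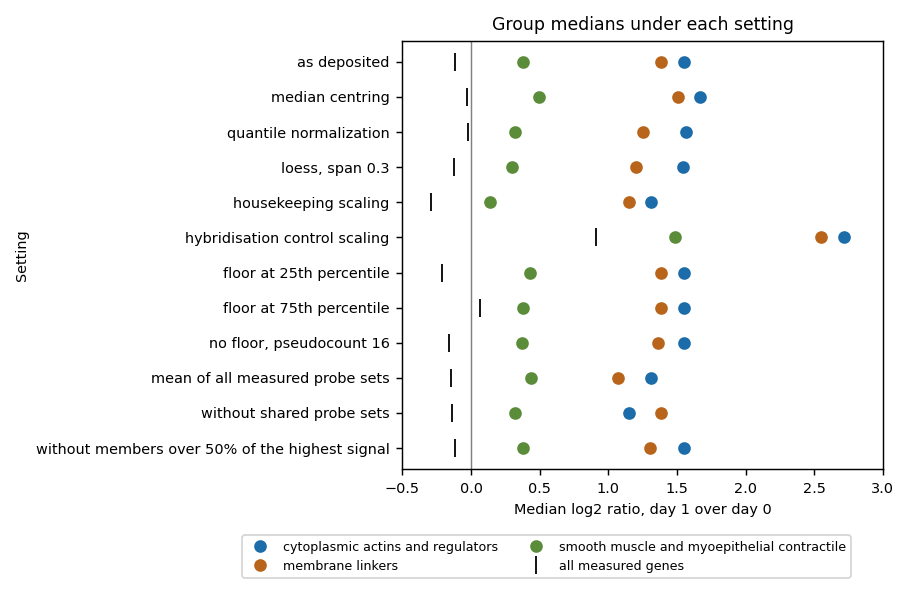
Median log2 ratio of the 3 groups (coloured points) and of all measured genes (black ticks) in the deposited scale and in 11 other settings. The contractile median stays left of the other 2 medians in each setting, and scaling on the hybridisation controls shifts all medians to the right.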

How the data were processed

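Per the labels, the authors computed each probe set's intensity (the MAS 5 signal, on a linear scale) with the Affymetrix Microarray Suite 5.0. No label states the target of their scaling, but the 2% trimmed means of the 2 arrays were equal (250.001). Of 45101 probe sets, 64 controls were set aside and 34945 others had 1 gene symbol, updated by gene identifier to RefSeq (GRCm38.p6). The 932 with several symbols were left out. The brightest probe set stood for a gene, as named in the report with the floor and the 2-fold threshold, and probe sets were said to disagree 0.5 log2 beyond 0, on the other side from the brightest; 5 genes did (Tpm3, Lasp1, Marcks, Acta2 and Tpm1). Log2 ratios of probe sets of 1 gene had a pooled SD of 0.56 over 3943 genes and of 0.74 over 20 genes of the list. The number of arrays limits the precision, and no p-value is given. Members and lists were chosen with earlier results of these data known. All genes of the list were to be described. Of every other list the 2 largest ratios above the floor were to be named, and Srf, Mrtfa, Myocd, Krt14, Krt5 and Des. Further genes there (Heyl, Cspg4, Cdh3, Krt17, Igfbp2, Col17a1, Sncg, Acta1, Itga5, Esr1, Elf5, Epcam, Gata3, Adgre1, Aif1, Laptm5, Adipoq, Fabp4 and Lep) were named after their values were seen. Alternatives were 5 scalings, 3 floors, 2 probe set rules and 2 thresholds; leaving out signals over 50% of the highest, and the marker sum without Cd14, were added after the data were examined. The code (Python 3.11.15, pandas 2.3.3, statsmodels 0.14.6) was tested on simulated data. Protein sequences were not used here, and 1 pathway list is not reported here.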

Additional observations from a re-analysis of the deposited data

Results flagged for a closer look

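Among signals outside the gene ratios, 5 probe sets of Myl6 or beta-actin were flagged, and all were above day 0. A pair of probe sets carries 3 symbols, Myl6 and 2 gene models, and was left out of the Myl6 ratio. Their signals were 4554 and 9788.5, and 4630.4 and 9843, on day 0 and day 1, with log2 ratios of 1.10 and 1.09. The probe set that names Myl6 alone had 0.41. The beta-actin quality controls had log2 ratios of 0.20, 0.85 and 0.93 at the 3' end, the middle and the 5' end, where the brightest Actb probe set had -0.15.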

How the results depend on the processing

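No paired analysis was possible because each day has 1 array. Of the 25 genes at least 2-fold higher, 16 stayed so in every alternative that gave a value, 9 were under 2-fold in at least 1 (Actg1, Actn1, Myh9, Pfn1, Cnn3, Ezr, Vcl, Marcks and Tpm1), and 0 changed direction. Hybridisation control scaling gave 38 genes higher, 9 of them contractile, where 46.6% of all measured genes were higher and 3.25% lower, with medians of 2.71, 2.55 and 1.49 for regulators, linkers and contractile genes. With the mean of all measured probe sets 0 contractile genes were higher. Without probe sets shared between transcripts, which left 34 genes, 11 regulators were higher and 2 lower, Actb and Tpm3, which were the 2 lower genes of the list. At 1.5-fold 2 genes were lower, 1 regulator and 1 contractile gene, and 3 contractile genes were higher. At 3-fold 13 genes were higher, 9 regulators and 3 linkers among them. The other medians of these groups lay within 0.56 log2, and the other counts within 1.5 times, of those reported. The 12 housekeeping genes had 8 measured, 0 higher and 1 lower (Tfrc, -3.12), with Ywhaz at 0.98 and a median of 0.24. The cause of these shifts was not tested.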
